A study of Mus musculus with 6 samples.

Results

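The 10 genes described here encode the inhibitors of cyclin-dependent kinases (CDKs) of the Cip/Kip and INK4 families and the D-type cyclins. They were chosen by symbol as Cdkn1a, Cdkn1b, Cdkn1c, Cdkn2a, Cdkn2b, Cdkn2c, Cdkn2d, Ccnd1, Ccnd2 and Ccnd3, and each matched 1 of the 35727 Ensembl gene IDs in the deposited count table. Of the 10 members, 8 had enough counts to be tested, and Cdkn2a and Cdkn2b had not.

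D cyclins bind CDK4 and CDK6 in early G1, and these kinases phosphorylate the retinoblastoma protein, which then releases E2F transcription factors. INK4 proteins bind CDK4 and CDK6 and keep D cyclins off them. Cip/Kip proteins inhibit CDK2 complexes with cyclin E or A, and at the same time help D cyclins assemble with CDK4. In mesenchymal tumours the INK4 locus and the p53 pathway are among the most frequently inactivated brakes of the cell cycle.

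RNA was sequenced from mouse sarcoma cells, labelled as undifferentiated pleomorphic, that were sorted for red fluorescence out of transplanted tumours. The shPostn group (3 libraries) carried a hairpin against Postn, which encodes the secreted matrix protein periostin, delivered by a viral vector, and the shSCR group (3 libraries) a scrambled hairpin. Both groups came from 1 syngeneic line of female C57/Bl6 origin, which was made from mesenchymal stem cells of p53KO mice by retroviral overexpression of Ccne1 (cyclin E1) with a red fluorescent marker, and was passaged through wild-type female recipients. By the labels the cells of all 6 libraries therefore derive from p53KO mice and received extra cyclin E. In cells that have it, p53 is the main activator of Cdkn1a, and cyclin E acts downstream of the D cyclins. Trp53, the p53 gene, had a mean of 118 CPM in shPostn and 121 CPM in shSCR, and counts per gene show neither which exons these come from nor which cells. The titles of the shPostn samples say KO, although the described reagent is a hairpin. The labels name 1 line for each hairpin and no second hairpin, and do not give the promoter of the Ccne1 vector or the age of the recipients. Whether the 3 libraries of each group are separate tumours is not given, so p-values measure only the spread between these samples, which may be technical.

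Library totals were 19603269 to 19931734 counts in shPostn and 19847860 to 20376554 counts in shSCR. Postn, the targeted gene, measured 217, 471 and 639 CPM (counts scaled to a common library size after normalisation) in shPostn libraries, against 4097, 3602 and 3225 CPM in shSCR libraries (log2 fold change −3.04, edgeR adjusted p = 0.0125). All 8 mesenchymal markers were detected, with a summed level of 35928 to 55521 CPM in shPostn and 43444 to 47535 CPM in shSCR. Most of this sum was Col1a1, Col1a2, Col3a1, Fn1 and Vim. Thy1 was low, at 0.257 to 1.55 CPM in shPostn libraries and 0.761 to 3.89 CPM in shSCR libraries. The third shPostn library stood apart. The 12 macrophage and monocyte markers summed to 1075 CPM in it, against 51.6 and 119 CPM in the other shPostn libraries and 70.6 to 223 CPM in shSCR libraries, and none of the 12 was at 0 in every library. The 10 pan-leukocyte markers summed to 424 CPM in it, against 215 and 250 CPM in the other shPostn libraries and 192 to 240 CPM in shSCR libraries. Much of this sum was Arhgdib, at 199, 191 and 151 CPM in shPostn libraries and 172, 172 and 158 CPM in shSCR libraries. Arhgdib was lowest in the third shPostn library, while every other marker of this list was highest there, so the sum understates the difference in those markers. The 9 endothelial markers summed to 60.5 to 98.8 CPM in shPostn and 83.5 to 101 CPM in shSCR. Nearly all of this was Flt1, at 59.0, 64.0 and 91.7 CPM in shPostn libraries and 97.9, 96.1 and 78.4 CPM in shSCR libraries. No other marker of this list was above 3.3 CPM in a library, and 3 of the 9 were tested. The 8 T and NK cell markers summed to at most 3.3 CPM. In bulk RNA, fewer cells of a type and less RNA per cell cannot be told apart.

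Promoter windows show what the annotated starts of these genes carry. RefSeq windows (GRCm38.p6), from 250 bases before to 50 bases after a start, were found for 7 of the 10 members. The first sequence is that of Cdkn1a, shown because the line comes from p53KO mice. Its upstream start (chr17:29090729-29091028, plus strand) has a pair of CATG cores spaced as in the classical p53 response element, at bases −51 to −32, and the capitals mark these 20 bases (chr17:29090928-29090947). The pattern searched was CATG, 6 bases of any kind and CATG, which reads the same on both strands, and 0.712% of all 32851 windows held it. The next 4 sequences are those of the members that passed the test: Cdkn1b (chr6:134920151-134920450, plus strand), Cdkn2c (chr4:109666707-109667006, minus strand, 1 of its 2 windows), Cdkn2d (chr9:21291160-21291459, minus strand) and Ccnd3 (chr17:47593217-47593516, plus strand, 1 of its 2 windows). In these the capitals mark CCAAT boxes (CCAAT or ATTGG) and GC boxes (GGGCGG or CCGCCC).
Cdkn1a: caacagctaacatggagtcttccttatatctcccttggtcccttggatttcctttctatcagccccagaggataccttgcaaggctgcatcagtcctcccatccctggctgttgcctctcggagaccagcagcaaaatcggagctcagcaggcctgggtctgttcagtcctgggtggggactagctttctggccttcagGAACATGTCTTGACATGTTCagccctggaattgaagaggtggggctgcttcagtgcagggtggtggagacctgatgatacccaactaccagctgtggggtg
Cdkn1b: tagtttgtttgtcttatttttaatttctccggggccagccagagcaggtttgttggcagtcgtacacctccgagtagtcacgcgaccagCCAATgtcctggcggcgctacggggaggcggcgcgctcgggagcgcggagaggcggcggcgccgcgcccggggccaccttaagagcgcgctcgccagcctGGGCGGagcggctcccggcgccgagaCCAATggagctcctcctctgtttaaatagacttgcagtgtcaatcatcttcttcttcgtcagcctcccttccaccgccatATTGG
Cdkn2c: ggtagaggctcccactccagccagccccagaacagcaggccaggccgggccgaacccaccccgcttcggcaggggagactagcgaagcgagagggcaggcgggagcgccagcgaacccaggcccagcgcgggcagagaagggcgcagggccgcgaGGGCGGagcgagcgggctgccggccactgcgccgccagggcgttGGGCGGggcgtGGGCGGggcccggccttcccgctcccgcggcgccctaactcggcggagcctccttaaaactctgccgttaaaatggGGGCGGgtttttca
Cdkn2d: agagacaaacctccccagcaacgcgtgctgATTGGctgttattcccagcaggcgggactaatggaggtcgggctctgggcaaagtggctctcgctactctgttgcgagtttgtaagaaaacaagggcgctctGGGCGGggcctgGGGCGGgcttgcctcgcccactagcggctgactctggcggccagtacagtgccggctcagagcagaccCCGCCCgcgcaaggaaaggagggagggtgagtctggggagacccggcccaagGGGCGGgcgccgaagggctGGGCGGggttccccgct
Ccnd3: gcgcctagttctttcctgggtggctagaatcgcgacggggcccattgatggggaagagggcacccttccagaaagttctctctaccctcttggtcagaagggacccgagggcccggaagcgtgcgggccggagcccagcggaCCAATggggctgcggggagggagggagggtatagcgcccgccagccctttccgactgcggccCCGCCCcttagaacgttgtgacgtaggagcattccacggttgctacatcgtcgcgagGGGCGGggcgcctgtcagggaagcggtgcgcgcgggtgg
A GC box was in 5 of the 6 windows of these 4 genes, against 35.7% of all windows on either strand. The window without one was the Cdkn2c window that is not printed. A CCAAT box was in the windows of Cdkn1b and Cdkn2d and in 1 of the 2 windows each of Cdkn2c and Ccnd3, against 37.4% of all windows. For Cdkn2c it was in the window not printed. An E2F pattern (TTTCCCGC, TTTCGCGC, TTTGCCGC or TTTGGCGC, either strand, 2.26% of all windows) was in 0 of the 6. A match of letters is a description of the window only.

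The comparison of shPostn with shSCR asks which genes differ between sorted tumour cells with the Postn hairpin and those with the scrambled hairpin. With 1 line for each hairpin, an effect of reduced periostin cannot be told apart from other differences between the lines. Of the 8 tested members, Cdkn1b rose and Cdkn2c, Cdkn2d and Ccnd3 fell in shPostn, and Cdkn1a, Cdkn1c, Ccnd1 and Ccnd2 did not pass the test (edgeR's quasi-likelihood test, Benjamini-Hochberg adjusted over 12819 genes, threshold 0.05). All 4 changes were under 1.5-fold: Cdkn1b was 1.22 times its shSCR level, and Cdkn2c, Cdkn2d and Ccnd3 were at 80.3%, 77.4% and 69.1% of theirs. The 4 calls among 8 stand beside 10.1% of all genes tested, with 1 that rose beside 4.61% and 3 that fell beside 5.53%. The median absolute log2 fold change was 0.35 for the 8 members and 0.17 for all genes tested. Among called genes only, it was 0.34 for the 4 members and 0.54 for all genes. At 5 of the 8 members the shPostn values did not overlap the shSCR values, against 33.6% of all genes tested.

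None of the 4 calls held with a shSCR library left out. The edgeR test called 0 of the 8 members without shSCR replicate 1, 2 or 3, where 3.3%, 2.36% and 3.1% of all genes tested passed. It called 2 members without shPostn replicate 1 (Cdkn2d and Ccnd3), 1 without shPostn replicate 2 (Cdkn2c) and 5 without shPostn replicate 3 (these 4 and Ccnd1), where 7.23%, 4.89% and 17.1% of all genes passed. Over these 6 fits all 4 called members kept their direction. Without shSCR replicate 1, 2 and 3 an unadjusted edgeR p under 0.05 was found for 5, 4 and 5 members. The share of all genes under 0.05 is not given here for these fits. With all 6 libraries, 5 of the 8 members and 3458 of the 12819 genes tested had an unadjusted p under 0.05.

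**Figure D1:**
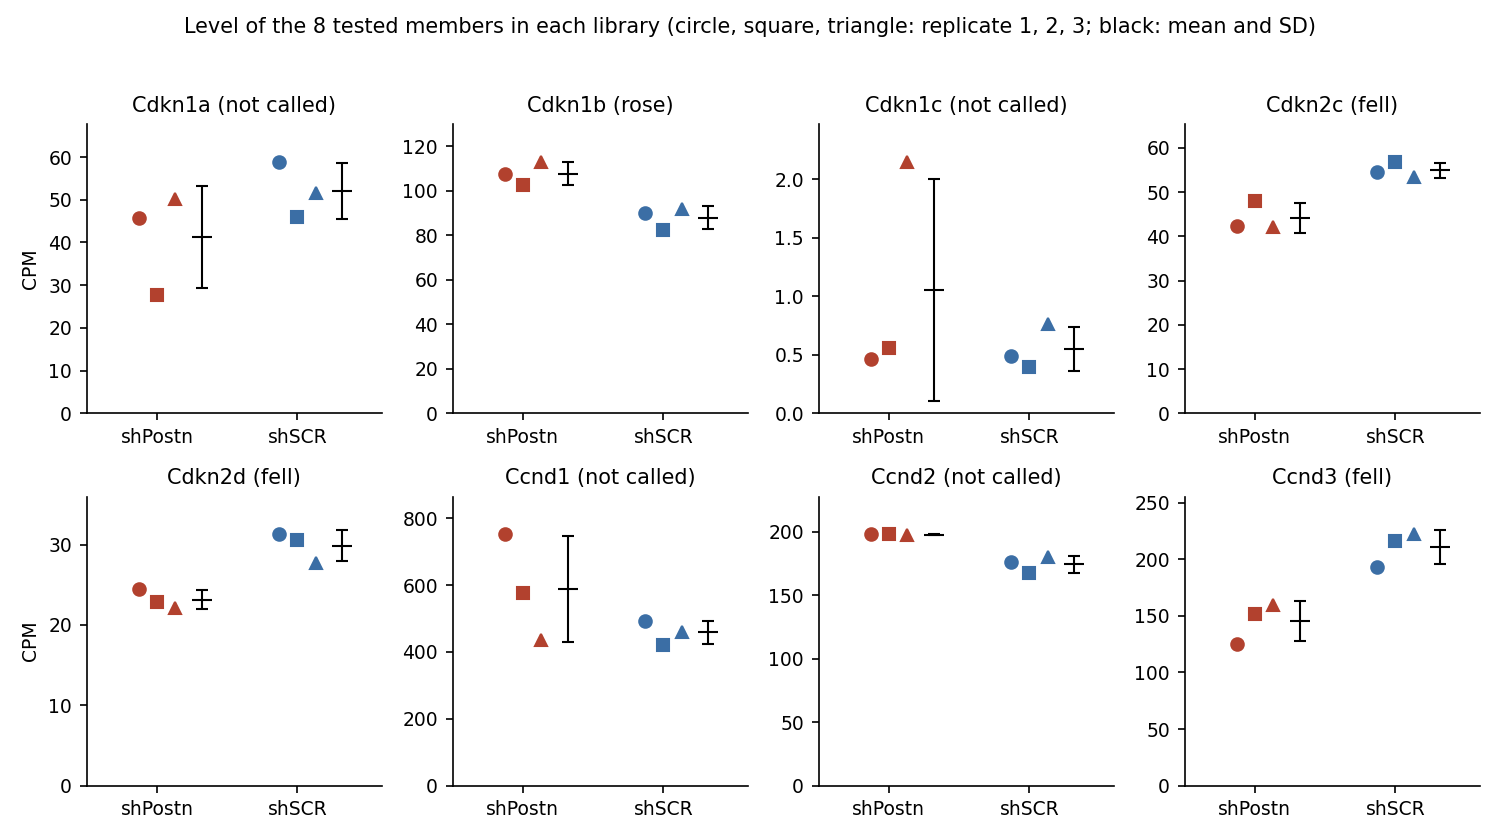
Level in CPM (vertical axis, from 0) of the 8 tested members in 3 shPostn and 3 shSCR libraries; each point is a library (circle, square and triangle for replicates 1, 2 and 3) and the black bar is the mean with its SD. The shPostn points lie above all shSCR points for Cdkn1b and Ccnd2 and below them for Cdkn2c, Cdkn2d and Ccnd3, and the groups overlap for Cdkn1a, Cdkn1c and Ccnd1.

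The Cip/Kip family had 1 member that rose and 2 that did not pass the test. Cdkn1b encodes p27, which holds cells in G0 or G1 and is removed by the SCF ubiquitin ligase with SKP2 (ENSMUSG00000003031; GRCm38 chromosome 6, 134920401 to 134925513, plus strand). It measured 107, 103 and 113 CPM in shPostn libraries, against 90.0, 82.2 and 91.6 CPM in shSCR libraries. Every shPostn library lay above every shSCR library. The means were 107.7 ± 5.15 CPM in shPostn and 87.9 ± 5.01 CPM in shSCR (SD, n = 3 each), and the log2 fold change was 0.29 (SE 0.07, edgeR adjusted p = 0.0393). With 1 library left out the log2 fold change was between 0.25 and 0.33, and the call remained only without shPostn replicate 3 (adjusted p = 0.0429); the highest adjusted p was 0.143, without shSCR replicate 2.

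Cdkn1a encodes p21, the CDK inhibitor through which p53 arrests the cycle after DNA damage (ENSMUSG00000023067; chromosome 17, 29090976 to 29100727, plus strand). In this line of p53KO origin it was detected at 45.8, 27.6 and 50.3 CPM in shPostn libraries and 58.9, 45.9 and 51.5 CPM in shSCR libraries. The groups overlapped, and shPostn replicate 2 was the lowest of the 6. The log2 fold change was −0.34, with a 95% interval of −0.90 to 0.22 (edgeR adjusted p = 0.408), and it was −0.12 without shPostn replicate 2.

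Cdkn1c encodes p57, an inhibitor that is expressed from the maternal allele and restrains growth of embryonic tissue (ENSMUSG00000037664; chromosome 7, 143458339 to 143461050, minus strand). It was close to the lower limit of the assay, with 9, 11 and 43 counts in shPostn libraries and 10, 8 and 15 counts in shSCR libraries. The groups overlapped, and the third shPostn library, which had the most macrophage marker RNA, alone held 43 of the 63 shPostn counts. The count ratio of shPostn to shSCR was 1.95 (95% exact Clopper-Pearson interval 1.26 to 3.06) with that library and 0.933 (0.508 to 1.68) without it. The fitted log2 fold change of 0.94 had a 95% interval of −0.61 to 2.49 (edgeR adjusted p = 0.413), was −0.10 without that library, and was 0.31 with the pan-leukocyte mean as a covariate. The interval of a count ratio was computed on counts pooled over the libraries of a group. It therefore covers the error of counting alone and leaves out the spread between libraries. The reads also carry no molecular identifiers.

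The INK4 family was split between a pair of genes at moderate levels and a pair that was close to or at 0 in both groups. Cdkn2c encodes p18, an INK4 protein that rises as muscle and B cells stop dividing and differentiate (ENSMUSG00000028551; chromosome 4, 109660876 to 109667189, minus strand). It measured 42.4, 48.0 and 42.1 CPM in shPostn libraries, against 54.6, 56.9 and 53.5 CPM in shSCR libraries. All shPostn values were below all shSCR values. The means were 44.2 ± 3.34 CPM in shPostn and 55.0 ± 1.72 CPM in shSCR (SD, n = 3 each), and the log2 fold change was −0.32 (SE 0.07, edgeR adjusted p = 0.0370). Chromosome 4 as a whole was lower in shPostn, with a median log2 fold change of −0.14 over 665 genes, and once chromosome medians were taken out Cdkn2c had a log2 fold change of −0.17 and an adjusted p of 0.207.

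Cdkn2d encodes p19 (INK4d), an INK4 protein that oscillates through the cycle with its peak in S phase (ENSMUSG00000096472; chromosome 9, 21288410 to 21291407, minus strand). It measured 24.4, 22.9 and 22.1 CPM in shPostn libraries, against 31.3, 30.6 and 27.7 CPM in shSCR libraries, again with no overlap. The means were 23.1 ± 1.19 CPM in shPostn and 29.9 ± 1.90 CPM in shSCR (SD, n = 3 each), and the log2 fold change was −0.37 (SE 0.08, edgeR adjusted p = 0.0324). Its chromosome had a median log2 fold change of 0.01. With 1 library left out the adjusted p lay between 0.0357 and 0.127 for Cdkn2d and between 0.0361 and 0.146 for Cdkn2c.

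Cdkn2a encodes both p16 (INK4a), an inhibitor of CDK4 and CDK6, and p19 (ARF), an activator of p53, from separate starts, and counts per gene do not separate the transcripts (ENSMUSG00000044303; chromosome 4, 89274471 to 89294653, minus strand). It had 0 counts in each shPostn library and 1, 1 and 0 counts in shSCR libraries. Cdkn2b encodes p15, the INK4 protein induced by TGF-beta (ENSMUSG00000073802; chromosome 4, 89306299 to 89311039, minus strand). It had 0 counts in all 6 libraries, and a count of 0 allows up to 0.147 to 0.154 CPM in a library (3 counts). No fold change was computed for either gene.

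The absence of counts did not extend over the whole region. Of the 36 other protein-coding genes that reach within 1 Mb of Cdkn2b, 22 were at 0 in every library and 14 had counts, of which 4 passed the filter. Mtap, the methylthioadenosine phosphorylase gene whose start lies 174 kb from that of Cdkn2b and which is often deleted together with CDKN2A in human tumours, had 7620, 8219 and 7639 counts in shPostn libraries and 9408, 8134 and 7427 counts in shSCR libraries (log2 fold change −0.06, edgeR adjusted p = 0.725). Klhl9 (−0.11, adjusted p = 0.458) and Hacd4 (−1.55, adjusted p = 0.130) were also tested, and these 3 are named after their values were seen. Focad, further along, was the only called neighbour of Cdkn2a and Cdkn2b and fell to 16.2 CPM in shPostn, against 27.3 CPM in shSCR (log2 fold change −0.76, adjusted p = 0.0128). Counts per gene cannot show whether Cdkn2a and Cdkn2b are present in the genome of these cells, and their copy number was not analysed here.

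**Figure D2:**
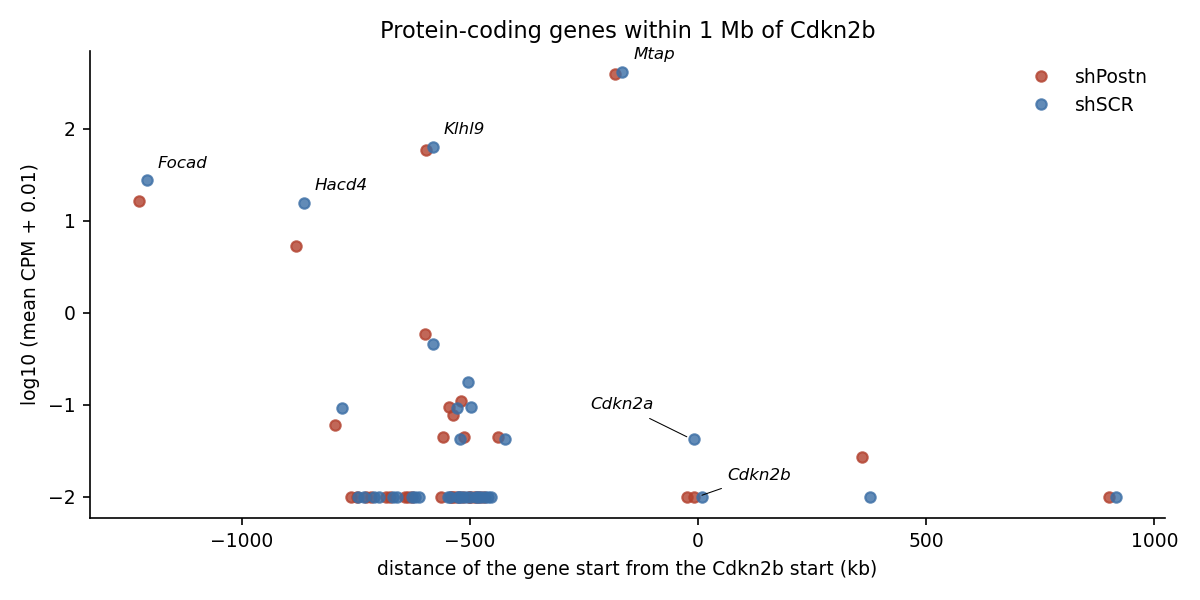
Mean level as log10 of CPM plus 0.01 (vertical axis) of the protein-coding genes that reach within 1 Mb of Cdkn2b, by the distance of their start from the Cdkn2b start in kb; the points of both groups are set slightly apart sideways and are means of 3 libraries. Mtap, Klhl9, Hacd4 and Focad lie far above the row of genes at 0 that holds Cdkn2b in both groups and Cdkn2a in shPostn.

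Among the D cyclins, Ccnd3 fell and the others had positive fold changes that did not pass the test. Ccnd3 encodes cyclin D3, the D cyclin most needed by developing lymphocytes (ENSMUSG00000034165; chromosome 17, 47505051 to 47599691, plus strand). It measured 125, 152 and 159 CPM in shPostn libraries, against 193, 216 and 222 CPM in shSCR libraries. The groups did not overlap. The means were 145.4 ± 18.0 CPM in shPostn and 210.6 ± 15.2 CPM in shSCR (SD, n = 3 each), and the log2 fold change was −0.53 (SE 0.10, edgeR adjusted p = 0.0231). With 1 library left out the log2 fold change was between −0.60 and −0.44, and the call was lost without shSCR replicate 1 (adjusted p = 0.0517), 2 (0.104) or 3 (0.0921) and without shPostn replicate 2 (0.0605). Bysl, which overlaps Ccnd3 on the opposite strand, also fell (log2 fold change −0.32, adjusted p = 0.0297); the libraries were strand-specific per the labels, but whether the counting used the strand is not given in the sources used here. The pseudogene Ccnd3-ps had at most 1 count in a library.

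Ccnd1 encodes cyclin D1, the D cyclin most responsive to growth factors and adhesion (ENSMUSG00000070348; chromosome 7, 144929931 to 144939925, minus strand). It measured 752, 575 and 436 CPM in shPostn libraries, against 492, 422 and 461 CPM in shSCR libraries. The first and second shPostn libraries were above all shSCR libraries, while the third lay within their range. The log2 fold change was 0.36, with a 95% interval of −0.10 to 0.82 (edgeR adjusted p = 0.293). Without shPostn replicate 3 it was 0.53, with an adjusted p of 0.0248, and without shPostn replicate 1 it was 0.14, with an adjusted p of 0.547. LTO1, which overlaps Ccnd1 on the opposite strand, had 295, 323 and 282 counts in shPostn libraries and 298, 290 and 319 counts in shSCR libraries.

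Ccnd2 encodes cyclin D2, a target of MYC and of gonadotropin and insulin-like growth factor signals (ENSMUSG00000000184; chromosome 6, 127125162 to 127152193, minus strand). It measured 198, 198 and 197 CPM in shPostn libraries, against 176, 167 and 180 CPM in shSCR libraries, with no overlap. The log2 fold change was 0.18, with a 95% interval of 0.05 to 0.31, and its adjusted p was 0.0878 in edgeR and 0.0129 in DESeq2, where 15.4% of all genes passed.

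**Figure D3:**
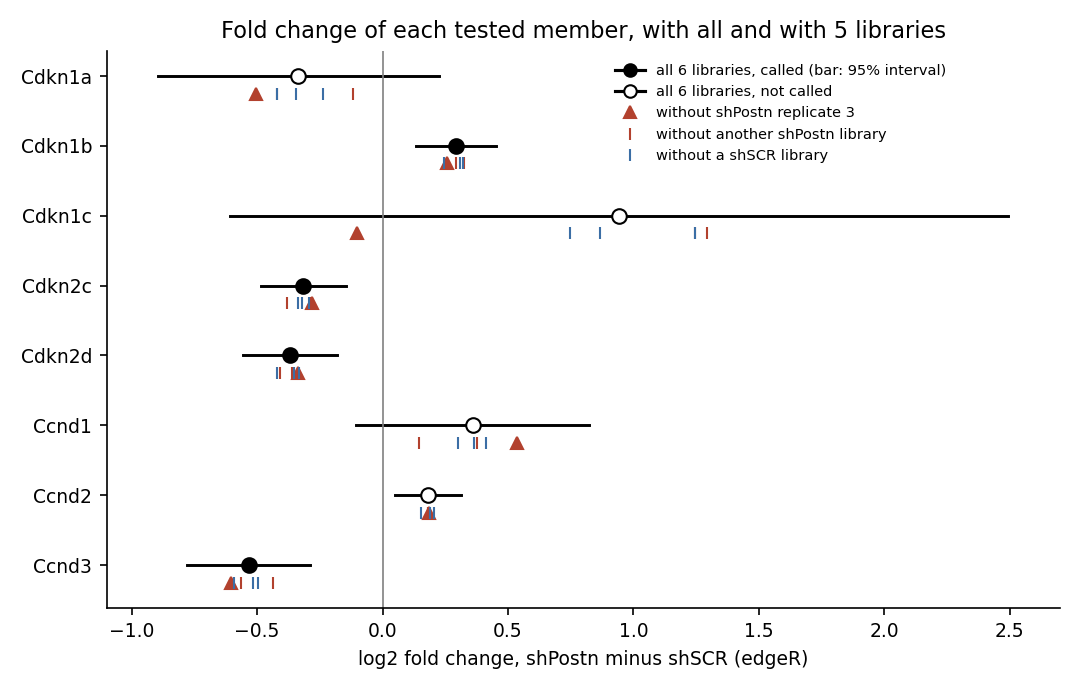
Log2 fold change of shPostn minus shSCR (horizontal axis) for the 8 tested members; circles and bars are the value and 95% interval from all 6 libraries, filled where the gene was called, and the marks under them are the values with 1 library left out, with a triangle for the fit without shPostn replicate 3. Cdkn1c moves from 0.94 to −0.10 and Ccnd1 from 0.36 to 0.53 without shPostn replicate 3, while Cdkn1b, Cdkn2c, Cdkn2d and Ccnd3 keep their direction in each of the 6 fits.

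Levels can be compared between genes only per length, and the order depends on the length used. Per kilobase of merged exons, Ccnd1 was the most abundant member, at 124.8 ± 33.6 CPM per kb in shPostn and 97.4 ± 7.45 CPM per kb in shSCR (SD, n = 3 each), above every other member in both groups. The next 6 members lay between 11.6 and 23.7 CPM per kb in shPostn and between 14.7 and 24.0 CPM per kb in shSCR, and Cdkn1c was at 0.518 CPM per kb in shPostn and 0.269 CPM per kb in shSCR. In shPostn the order after Ccnd1 was Cdkn1b, Ccnd2, Ccnd3, Cdkn2c, Cdkn2d and Cdkn1a, where the range of Ccnd3 overlapped those of Cdkn2c and Cdkn2d, and the range of Cdkn2d that of Cdkn1a. In shSCR it was Ccnd3, Cdkn2c, Cdkn1b, Cdkn2d, Ccnd2 and Cdkn1a, where the ranges of neighbours in the order overlapped from Cdkn2c through Ccnd2, although Cdkn2c lay above Cdkn2d and Ccnd2. With the longest transcript as the length, Ccnd3 was in second place in both groups, since its 21 annotated transcripts merge to 8775 bases while the longest has 3858.

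Ccnd3 made up less of the D cyclin transcripts in shPostn. Its share of the summed CPM per kb of the D cyclins was 7.31%, 10.8% and 13.8% in shPostn libraries, against 15.2%, 18.7% and 17.8% in shSCR libraries. The shares of Ccnd1 were 81.9%, 76.1% and 70.3% in shPostn libraries, against 72.0%, 67.9% and 68.8% in shSCR libraries, and overlapped. The count ratio of Ccnd1 to Ccnd3 within a library, which needs no length, was 6.01, 3.79 and 2.74 in shPostn and 2.54, 1.95 and 2.08 in shSCR. That of Ccnd2 to Ccnd3 was 1.58, 1.30 and 1.24 in shPostn and 0.909, 0.772 and 0.810 in shSCR. Neither ratio overlapped between the groups. Among the inhibitors, the count ratio of Cdkn1b to Cdkn2c was 2.53, 2.14 and 2.69 in shPostn and 1.65, 1.45 and 1.71 in shSCR. These ratios are descriptions with no test, since they combine members. In every shPostn library Ccnd2 and Cdkn1b were above, and Ccnd3 and Cdkn2c below, all shSCR libraries. The ratios of Ccnd2 to Ccnd3 and of Cdkn1b to Cdkn2c therefore could not overlap between the groups.

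**Figure D4:**
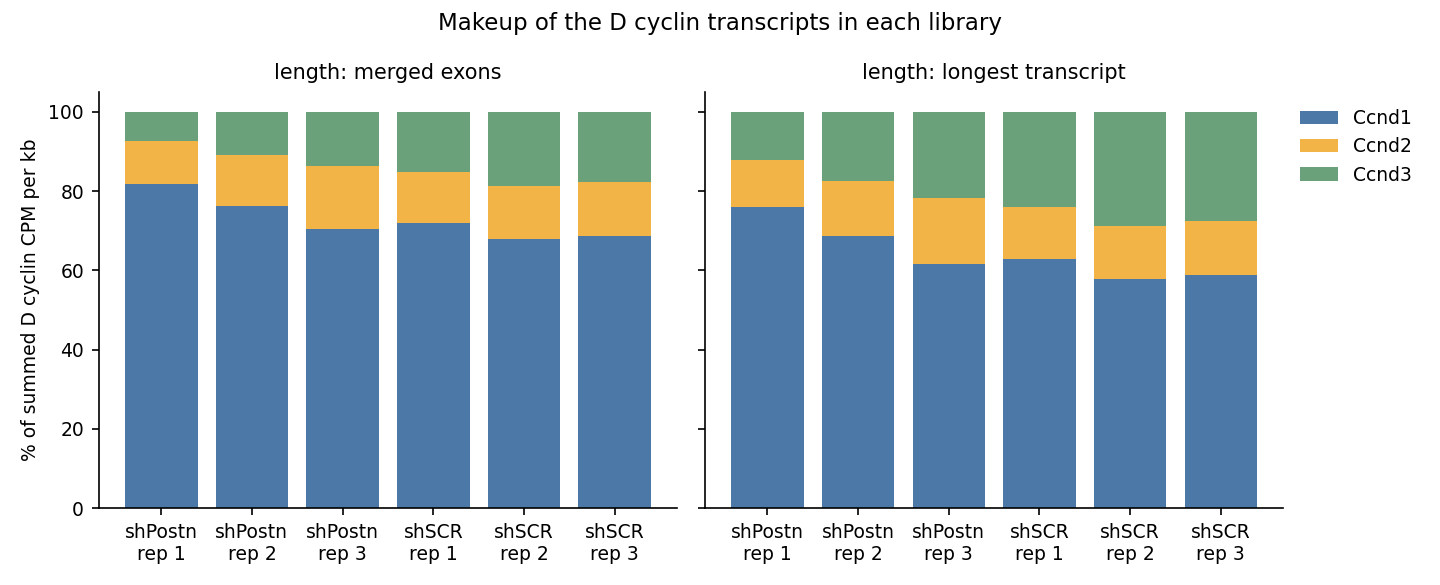
Share of Ccnd1, Ccnd2 and Ccnd3 in the summed D cyclin CPM per kb (vertical axis, percent) in each library, with merged exons (left) or the longest transcript (right) as the length. The Ccnd3 share is 7.31% to 13.8% in shPostn and 15.2% to 18.7% in shSCR with merged exons, and larger in all libraries with the longest transcript.

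Counts of called genes in the following lists stand beside 10.1% of all genes tested, with 4.61% higher and 5.53% lower, and those without shPostn replicate 3 beside 17.1%. Counts with an unadjusted edgeR p under 0.05 stand beside 3458 of the 12819 genes tested. Of the 15 genes for CDK4, CDK6, the retinoblastoma family and the E2F factors, E2f2 and E2f8 fell and 13 did not pass the test. E2f2, an activator, measured 20.6, 18.0 and 15.1 CPM in shPostn libraries and 24.5, 29.0 and 25.8 CPM in shSCR libraries (log2 fold change −0.56, SE 0.13, edgeR adjusted p = 0.0366). E2f8, a repressor that E2F1 induces, averaged 26.2 ± 2.68 CPM in shPostn and 39.7 ± 5.38 CPM in shSCR (n = 3 each; log2 fold change −0.60, edgeR adjusted p = 0.0277). Of 15 tested genes for E, A and B cyclins, CDK1, CDK2 and their activators, the mitotic phosphatase gene Cdc25c fell (log2 fold change −0.53, adjusted p = 0.0209) and 14 did not pass; without shPostn replicate 3, 1 rose and 1 fell. Of 20 E2F targets of the G1/S step, the ribonucleotide reductase gene Rrm2 rose (0.55, adjusted p = 0.0416) and 19 did not pass. Of 10 proliferation markers 0 passed in edgeR, DESeq2 or limma-voom, and 1 had an unadjusted p under 0.05; their median log2 fold change was −0.10, against 0.01 for all genes tested, and the most abundant, Mki67 and Top2a, had values of −0.14 and −0.04.

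Lists of upstream regulators and of linked genes stand beside the same 10.1%, and beside 17.1% without shPostn replicate 3. Their counts with an unadjusted p under 0.05 stand beside the same 3458 of 12819 genes. Of 19 tested p53 targets other than Cdkn1a, Sesn2, a stress-induced inhibitor of mTORC1, fell to 46.7 ± 5.40 CPM in shPostn, against 95.7 ± 4.37 CPM in shSCR (n = 3 each; log2 fold change −1.04, edgeR adjusted p = 0.00276), and 18 did not pass; without shPostn replicate 3, 4 fell and 1 rose. Of 23 transcriptional regulators, Cbx7, a Polycomb protein that represses the INK4 locus, fell to 1.49, 3.74 and 5.40 CPM in shPostn libraries, against 11.3, 15.7 and 13.4 CPM in shSCR libraries (log2 fold change −1.92, SE 0.43, adjusted p = 0.0440). Smad2, which carries TGF-beta signals (−0.49, adjusted p = 0.0125), and Zbtb17, the MYC partner MIZ1 (−0.38, adjusted p = 0.0267), also fell, and 20 regulators did not pass. Of 18 genes that degrade D cyclins and Cip/Kip proteins 0 passed in edgeR (1 with an unadjusted p under 0.05), 0 in limma-voom and 1 in DESeq2. The most abundant, Ddb1 and Cul4a, subunits of the CRL4 ligase, had log2 fold changes of 0.13 and −0.06. Of 5 tested imprinted neighbours of Cdkn1c 0 passed in any of these tools and 0 had an unadjusted p under 0.05; the most abundant, Cd81 and Nap1l4, had log2 fold changes of 0.08 and 0.04. Igf2, an imprinted gene of the adjoining domain that is not on this list, fell (−3.19, edgeR adjusted p = 0.0375). Of 13 senescence-linked genes the lamin gene Lmnb1 fell (−0.62, adjusted p = 0.00458), and 12 did not pass; without shPostn replicate 3, 4 fell.

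These 9 lists hold 138 tested genes, of which 1 rose and 8 fell, beside 4.61% of all genes tested that were higher and 5.53% that were lower. Rrm2 lies on chromosome 12, which was higher in shPostn as a whole (median log2 fold change 0.39 over 374 genes), and Cdc25c, Smad2 and Lmnb1 lie on chromosome 18, which was lower (−0.45 over 281 genes). E2f2, Sesn2 and Zbtb17 lie on chromosome 4, which was also lower, by less (−0.14 over 665 genes). Once chromosome medians were taken out, 1 of the 9 called genes, Sesn2, passed (log2 fold change −0.89, adjusted p = 0.00563), where 5.1% of all genes passed. With 1 library left out, Sesn2 and Lmnb1 passed in each fit, and for the other 7 the highest adjusted p lay between 0.0633 (Smad2) and 0.151 (Cbx7).

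**Figure D5:**
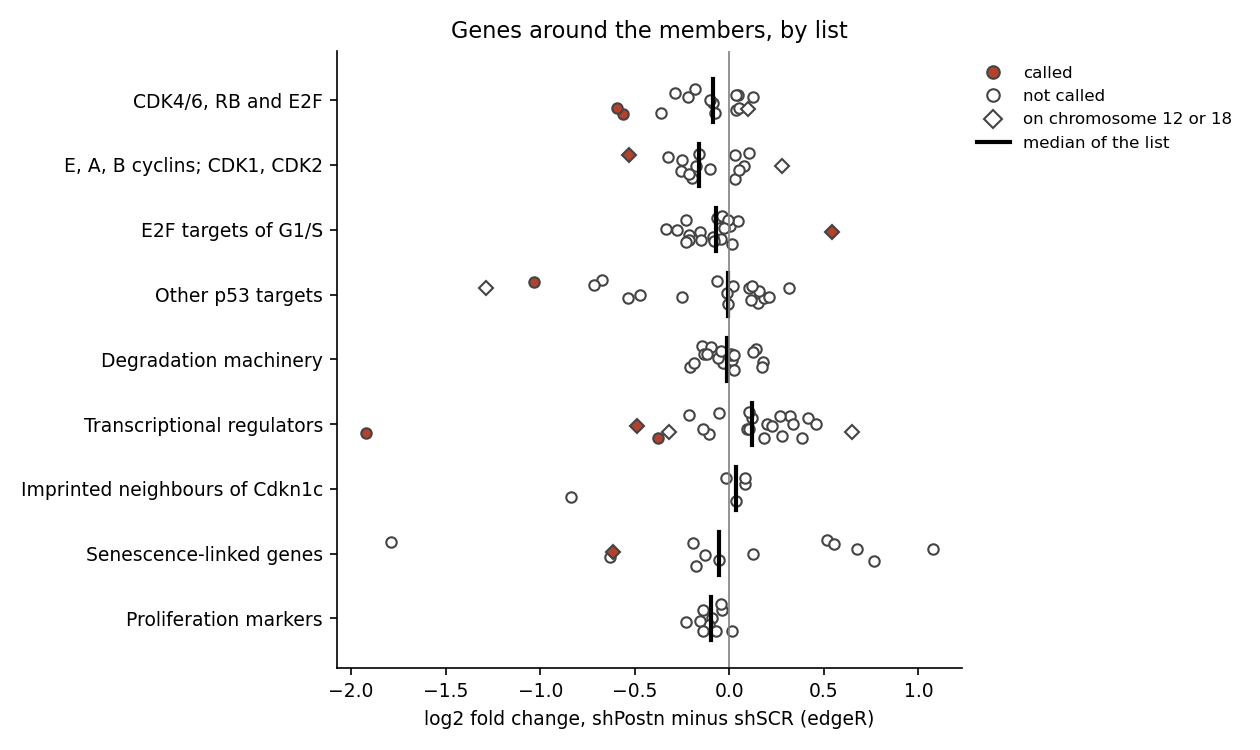
Log2 fold change of shPostn minus shSCR (horizontal axis) of the tested genes of 9 lists around the members; each point is a gene, filled where it passed the test, diamonds lie on chromosome 12 or 18, and the black bar is the list's median. The medians lie between −0.16 and 0.12, and 4 of the 9 filled points are diamonds.

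Of the genes around the members on the chromosome, 3 of 13 passed the test near Cdkn2c, 3 of 18 near Cdkn1c, 3 of 57 near Cdkn2d, 2 of 32 near Ccnd3, 1 of 14 near Cdkn1b, 1 of 30 near Cdkn1a and 1 of 8 near Ccnd2, beside 10.1% of all genes tested. Within 1 Mb of Cdkn1b 14 neighbours were tested; their median log2 fold change was −0.11, 0 rose and 1, Gsg1, fell (−1.20, edgeR adjusted p = 0.0341). Within 1 Mb of Cdkn2d 57 neighbours had a median of 0.01 and 0 that fell, while Rgl3, Epor and Zfp266 rose. Within 1 Mb of Ccnd3 32 neighbours had a median of 0.01, with Ptk7 (−2.67, adjusted p = 0.0268) and Bysl that fell. The 13 neighbours of Cdkn2c had a median of −0.20, and Btf3l4 (−0.69), Nrd1 (−0.36) and Osbpl9 (−0.27) fell. Near the others, Mapk13 by Cdkn1a (−1.89), Rad51ap1 by Ccnd2 (−0.41), and Igf2 (−3.19), Cars (−0.55) and Lsp1 (−0.40) by Cdkn1c fell, and 0 of 7 neighbours of Ccnd1 passed.

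The profiles most like that of Cdkn1b over the 6 libraries were those of Stk4, Mob1b and Snx13, at Euclidean distances of 0.0438, 0.0515 and 0.0514 between centred log2 CPM values among 11985 genes. Stk4 encodes the Hippo kinase MST1 and Mob1b a Hippo adaptor, and neither passed the test (edgeR adjusted p = 0.0587 and 0.0652). Snx13 passed (edgeR adjusted p = 0.0385) and lies on chromosome 12. Stk4 measured 33.3, 30.9 and 35.1 CPM in shPostn libraries and 27.1, 25.1 and 28.3 CPM in shSCR libraries. The profiles most like that of Ccnd3 were those of Gramd1b, Aak1 and Gtpbp2, at distances of 0.102, 0.113 and 0.147. Gramd1b, which encodes a sterol transfer protein, measured 13.7, 15.7 and 16.8 CPM in shPostn libraries and 20.3, 24.4 and 23.8 CPM in shSCR libraries.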

How the data were processed

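Estimated counts per Ensembl gene were deposited by the authors, and the submitters' processing notes list Salmon and mm10; no version or annotation is named in the sources used here. All values were whole, so no rounding was needed. Of 35727 IDs, 35493 had a position in GENCODE M21 (GRCm38). Where IDs shared a symbol, the ID with the most reads took it. Skp1 was matched as Skp1a, and Kcnq1ot1 was not analysed here.

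Genes passing filterByExpr (minimum count 10) were scaled by TMM and compared between 3 shPostn and 3 shSCR libraries with edgeR 4.0.16 (robust quasi-likelihood F-test, R 4.3.3); p-values were Benjamini-Hochberg adjusted over 12819 genes. The SE is the size of the log2 fold change over the square root of F, and 95% intervals use the fit's degrees of freedom. The fit was tested on simulated data. CPM were scaled to TMM library sizes. Lengths came from GENCODE M21. Neighbours are protein-coding genes that reach within 1 Mb. Genes with a mean over 4 CPM gave the chromosome medians. For likeness, 0.5 was added to CPM before log2. Alternatives were other scaling factors and filters, DESeq2 1.42.0, limma-voom (limma 3.58.1), a replicate block, a leukocyte covariate, chromosome medians, a second gene length and each library left out.

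The members and lists were chosen with earlier results of these data known. All members were named; of each list, the called genes (up to 3 each way with the largest change) or, with none called, the 2 most abundant; of neighbours, up to 3 called per member; and for likeness, the 3 nearest profiles to the called members with the largest rise and fall. The labels give no batch. Figures used Python 3.11.15, pandas 2.3.3 and matplotlib 3.10.9.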

Additional observations from a re-analysis of the deposited data

How the results depend on the processing

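Directions of the 8 tested members held under every alternative run, except that Cdkn1c had a log2 fold change of −0.10 without shPostn replicate 3; with 1 library left out its values lay between −0.10 and 1.29, and the filter of 1 CPM in 3 libraries left it untested. The count of members called was 4; it was 4 with the other scaling factors, filters, limma-voom and the leukocyte covariate, 5 with DESeq2, 3 with chromosome medians taken out, and 0 to 5 with 1 library left out. Fits with 1 library left out have fewer samples; other causes were not tested. The pathway lists had 9 called genes, 15 with DESeq2, 16 with the leukocyte covariate, 1 with chromosome medians taken out and 2 to 19 with 1 library left out. Over all genes 1300 were called, against 1973 with DESeq2, 2157 with the leukocyte covariate, 654 with chromosome medians taken out and 307 to 2220 with 1 library left out. The Postn log2 fold change lay between −3.40 and −2.71 with 1 library left out, with an adjusted p of 0.0532 without shSCR replicate 1 and 0.0542 without shSCR replicate 2.

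Replicate numbers are shared by both groups, and the deviations of same-numbered libraries correlated at −0.07, −0.10 and −0.46. Those of differently numbered libraries lay between −0.37 and 0.43. With 3 libraries in each group these values cannot show whether the numbers pair the libraries. With a replicate block 1 member (Ccnd3) and 735 genes over all were called, and Postn had a log2 fold change of −3.16 (adjusted p = 0.0592). With the longest transcript as the length, the mean share of Ccnd3 among the D cyclins was 17.2% in shPostn, against 10.6% with merged exons, and that of Ccnd1 was 68.7% against 76.1%. At this depth Cdkn1c had 8 to 43 counts in a library, and Cdkn2a and Cdkn2b had too few to be tested.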

Other observations

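The shPostn library with the lowest Postn level (217 CPM) had the highest Ccnd1 (752 CPM) and the lowest Ccnd3 (125 CPM) of that group. The shPostn library with the highest Postn level (639 CPM) had the lowest Ccnd1 (436 CPM) and the highest Ccnd3 (159 CPM). The shSCR libraries did not repeat this order. There the library with the highest Postn level (4097 CPM) had the highest Ccnd1 (492 CPM) and the lowest Ccnd3 (193 CPM). The shSCR library with the lowest Postn level (3225 CPM) had the highest Ccnd3 (222 CPM). With 3 libraries no relation was computed, and the shPostn library with 639 CPM is also the one with the most macrophage marker RNA. Summed over each family per kilobase of merged exons, the INK4 genes were at 31.3, 32.4 and 29.7 CPM per kb in shPostn libraries and 40.2, 40.7 and 37.5 CPM per kb in shSCR libraries. Cdkn2a and Cdkn2b added almost nothing to these sums. Cdkn2c and Cdkn2d were each lower in every shPostn library than in all shSCR libraries, so the INK4 sums could not overlap. The Cip/Kip genes were at 36.7, 30.6 and 40.0 CPM per kb in shPostn libraries and 36.6, 31.2 and 35.0 CPM per kb in shSCR libraries.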
